A study of Mus musculus with 12 samples.

Results

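The genes described here are the collagen chains of the mouse and the enzymes that cross-link them, in C2C12 cells, an established line of mouse skeletal myoblasts. They were chosen by name: every protein-coding gene with a collagen chain symbol, the lysyl oxidases Lox and Loxl1 to Loxl4, the lysyl hydroxylases Plod1 to Plod3, and the collagen chaperone gene Serpinh1. That gave 53 of the 54532 genes counted, of which 44 encode chains and 9 encode enzymes or the chaperone. Confluent dishes were kept for 24 h with 0, 2 or 6 µM PFOS (perfluorooctanesulfonate, a perfluorinated surfactant that persists in the environment), with 4 messenger RNA libraries per dose and 12 in all. No other agent or allele is named for any group, the vehicle is not given in the sources used here, and no label ties the 4 replicates of a dose to independent cultures. The p-values therefore cover the spread between these libraries alone, and that spread may be technical.

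A collagen molecule is a triple helix of 3 chains, which come from a single gene in some types and from several genes in others. Fibrillar types (I, II, III, V, XI, XXIV and XXVII) pack into fibres, type IV forms the sheet-like network of basement membranes such as the layer around each muscle fibre, and the remaining types sit on fibrils, form microfibrils or networks, or span the cell membrane. In the endoplasmic reticulum lysyl hydroxylases modify lysines and the chaperone Hsp47, the product of Serpinh1, holds the helix together; outside the cell lysyl oxidases turn lysines into the aldehydes that join neighbouring molecules.

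The libraries held 30206155 to 50351082 gene counts, and mitochondrially encoded genes took 1.87% to 2.57% of them. The number of genes with counts was 19292 to 20110 at 6 µM, against 20470 to 21040 at 0 µM, and the part of this in the results was not tested. Levels are CPM, the count divided by the library size and scaled up to a common total, with library sizes corrected by TMM factors. Of the 53 genes, 42 passed the filter on low counts and were tested: 33 chains and all 9 enzyme and chaperone genes. The muscle markers Myod1, a myogenic transcription factor, and Des, an intermediate filament, averaged 23.2 and 230.1 CPM at 6 µM, against 30.3 and 258 CPM at 0 µM. Pax7, the satellite cell factor, stayed under 1 CPM in every library. Adipoq, Retn and Tcf21, markers of adipocytes and fibroblasts, had no counts in any library, but other markers of these cells did. The fibroblast markers Ly6a and Pdgfra averaged 181 and 20.5 CPM at 6 µM, against 170 and 22.5 CPM at 0 µM. The adipocyte markers Plin1 and Cidec had 24 and 8 counts over all libraries. Ptprc, the leukocyte marker, had 6 counts over all libraries, none of them at 6 µM.

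Type I and III chains carried most of the collagen message in untreated cells. At 0 µM the 4 most abundant chains in CPM, Col1a2, Col1a1, Col3a1 and Col12a1, held 68.2% of the sum over all 44 chains, 19 chains averaged at least 10 CPM, and 17 averaged under 1 CPM. Levels of different genes are compared per length, as CPM per 1000 bases of the gene length in the deposited table. On that scale Serpinh1 was highest at 0 µM with 868 ± 38.4, followed by Col1a1 with 660 ± 87.4 and Col1a2 with 488 ± 29.6 (SD, n = 4). Col3a1 at 282 ± 12.8 and Col6a1 at 274 ± 14.4 lay within each other's spread. Next came Lox at 226 ± 5.31 and Col5a2 at 151 ± 3.56. Col12a1 at 112 ± 9.74, Col6a3 at 105 ± 6.60 and Col5a1 at 98.2 ± 8.66 were not separated beyond their spread.

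The main type IV chains stood below the 6 most abundant fibrillar chains, at 31.9 ± 2.45 for Col4a1 and 28.9 ± 2.65 for Col4a2, again within each other's spread. Plod2 at 73.1 ± 1.40 was the highest lysyl hydroxylase, above Plod1 at 44.4 ± 2.59 and Plod3 at 32.3 ± 2.38. Among the oxidases Lox was followed by Loxl4 at 24.1 ± 1.66, Loxl1 at 23.1 ± 2.07, Loxl3 at 17.4 ± 0.584 and Loxl2 at 7.64 ± 0.471. Some ranks shifted with dose: Col3a1 ranked 4 of all 53 genes at 0 µM, 5 at 2 µM and 6 at 6 µM, while Col11a1 ranked 14, 14 and 17 and Col4a1 16, 15 and 14.

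**Figure D1:**
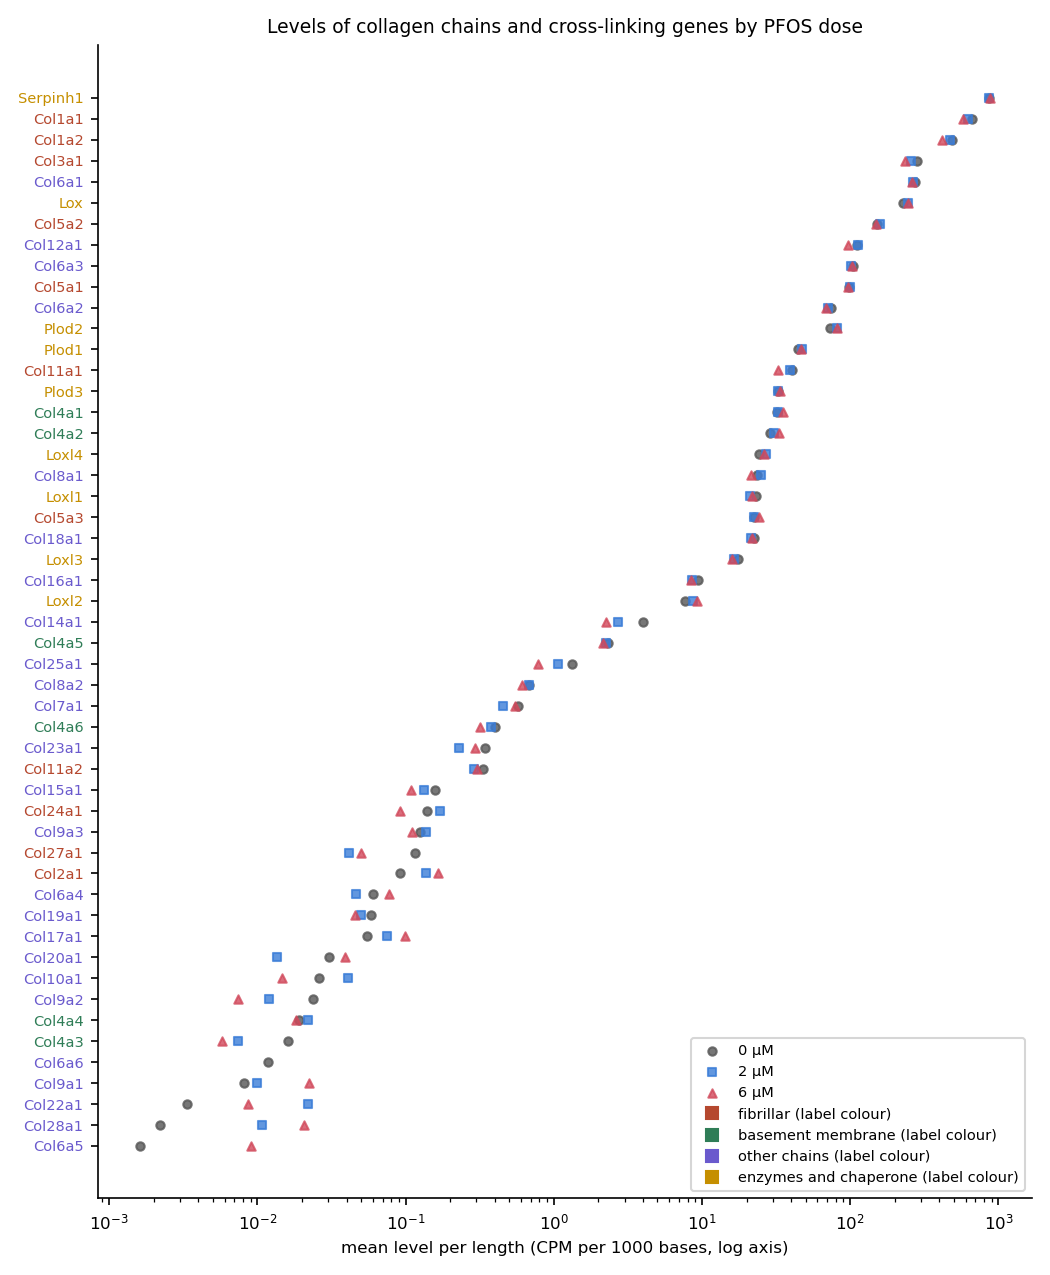
Level per length (CPM per 1000 bases, log axis) of the collagen chain, enzyme and chaperone genes at 0, 2 and 6 µM PFOS, as mean over 4 libraries per dose. Serpinh1, Col1a1 and Col1a2 are highest at every dose, and Col13a1 and Col26a1, which had no counts at 0 µM, are not drawn.

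Summed over classes, the fibrillar chains averaged lower and the type IV chains higher at 6 µM than at 0 µM. All 44 chains together came to 19456 ± 356 CPM at 6 µM, against 21800 ± 1461 CPM at 0 µM (mean ± SD, n = 4 each), and every 6 µM library lay below every 0 µM library. Fibrillar chains summed to 16115 ± 1168 CPM at 0 µM, 15480 ± 715 at 2 µM and 14117 ± 308 at 6 µM. Their 6 µM range of 13767 to 14514 CPM lay below the 0 µM range of 14656 to 17476 CPM. Type IV chains summed to 449 ± 35.9, 465 ± 13.3 and 499 ± 9.27 CPM at 0, 2 and 6 µM, and here the 6 µM range of 487 to 509 CPM overlapped the 0 µM range of 413 to 499 CPM. Nearly all of the type IV sum was Col4a1 and Col4a2, with 264 and 218 CPM at 6 µM. Col4a5 and Col4a6 averaged lower at 6 µM than at 0 µM. The sum over the other chain types was 5237 ± 315, 5107 ± 143 and 4840 ± 56.1 CPM, with 4777 to 4901 CPM at 6 µM below 4950 to 5680 CPM at 0 µM.

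As a share of all chain CPM, type IV took 2.06% ± 0.0450 at 0 µM, 2.21% ± 0.0288 at 2 µM and 2.56% ± 0.0464 at 6 µM (SD, n = 4). The ranges of the 3 doses did not overlap, at 2.00% to 2.11%, 2.17% to 2.23% and 2.52% to 2.63%. Fibrillar chains held 73.9%, 73.5% and 72.6% at the same doses, and the 0 µM range overlapped both others. The sums of the 0 µM libraries were the most spread of the 3 doses in all 3 chain classes. These are bulk libraries, so fewer cells of a type and less RNA per cell cannot be told apart.

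**Figure D2:**
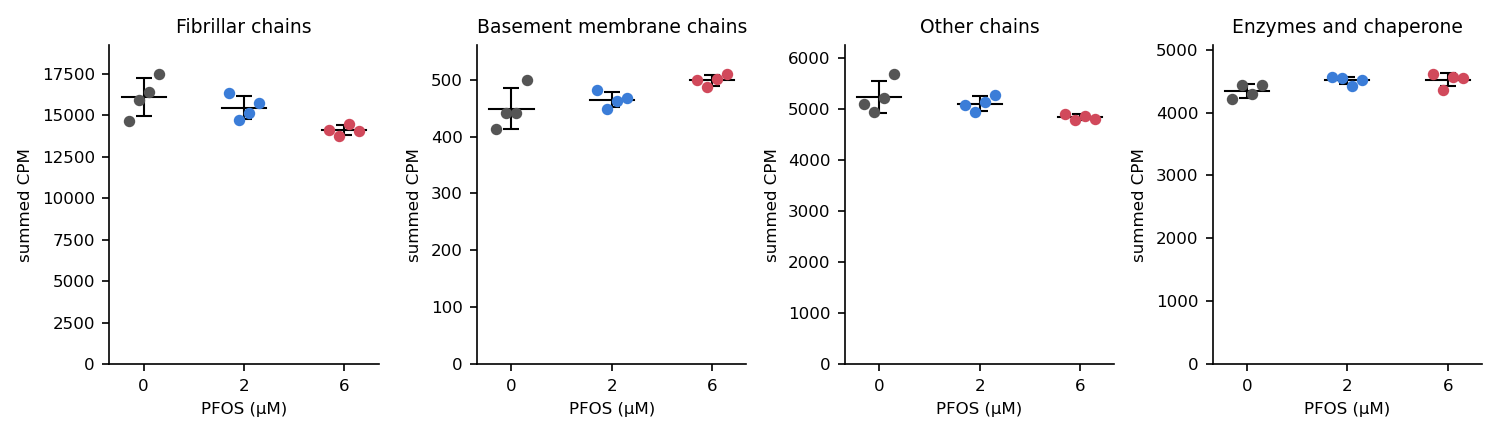
Summed CPM of fibrillar chains, type IV chains, other chains, and enzymes with the chaperone, by PFOS dose (µM); points are libraries and bars mean ± SD over 4. The 6 µM libraries lie below all 0 µM libraries for fibrillar and other chains.

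At 6 µM against 0 µM, which asks what the higher dose changed, 10 of the 42 tested genes were called: Col1a2, Col3a1, Col11a1, Col12a1, Col14a1 and Col25a1 fell, and Col4a2, Lox, Loxl2 and Plod2 rose. Calls come from edgeR's quasi-likelihood test, at a threshold of 0.05 on p-values adjusted by Benjamini-Hochberg over all 16038 tested genes. That is 23.8% of the collagen genes tested, beside 8.24% of all tested genes. Among all tested genes 735 rose (4.58%) and 587 fell (3.66%). With upper-quartile scaling 598 of all genes rose and 662 fell, and of the collagen genes 3 rose and 9 fell. Collagen genes are abundant, so the share is also given for genes averaging at least 10 CPM over the 12 libraries: all 10 called collagen genes were among the 28 at that level (35.7%), beside 12% of 9385 such genes in all. Over the 33 tested chains the median log2 fold change was −0.14, beside −0.02 for all tested genes. Of the tested chains 26 had a negative and 7 a positive fold change. These counts include 14 chains that averaged under 10 CPM at 0 µM. Chains under about 1 CPM had too few counts for their direction to be read. The share of negative fold changes over all tested genes was not computed.

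By class, 3 of 11 fibrillar chains fell, with a median log2 fold change of −0.20. Of the 5 tested type IV chains 1 rose, and their median was 0.00, or −0.01 with upper-quartile scaling. Of the 17 other tested chains 3 fell, with a median of −0.15, and of the 9 enzyme and chaperone genes 3 rose, with a median of 0.07. Among the chains averaging at least 10 CPM, the fold change was negative for 6 of 7 fibrillar chains and for 9 of 9 of the other types, and positive for 2 of 3 type IV chains. Of all genes at that level 45.2% had a negative fold change. Differences between the classes were not tested.

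The 2 µM dose left most of these genes within the spread. Against 0 µM, Plod2 rose at 2 µM and Col3a1 and Col14a1 fell, 3 of 42 tested (7.14%), beside 2.35% of all tested genes (1.61% higher and 0.742% lower). At 6 µM against 2 µM Col1a2, Col8a1, Col11a1, Col12a1 and Col25a1 fell, 5 of 42 (11.9%), beside 1.11% of all tested genes (0.561% higher and 0.549% lower). Among genes averaging at least 10 CPM the shares were 10.7% of the collagen genes beside 3.68% of all for 2 against 0 µM, and 17.9% beside 1.67% for 6 against 2 µM. In the direct comparison of the doses edgeR's quasi-likelihood test called 0 collagen genes higher at 6 µM, as did DESeq2 and limma-voom, while 1 was higher with an unadjusted p below 0.05. The comparisons with 0 µM share the same 4 untreated libraries.

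The libraries of the compared doses did not overlap for 12 of the 42 tested collagen genes at 6 µM against 0 µM, with 3 higher and 9 lower, beside 6.39% of all tested genes higher and 6.15% lower. For 2 µM against 0 µM, 3 were higher and 3 lower without overlap, beside 4.77% and 3.60% of all tested genes. Between 6 and 2 µM, 2 were higher and 8 lower, beside 4.45% and 4.15%.

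**Figure D3:**
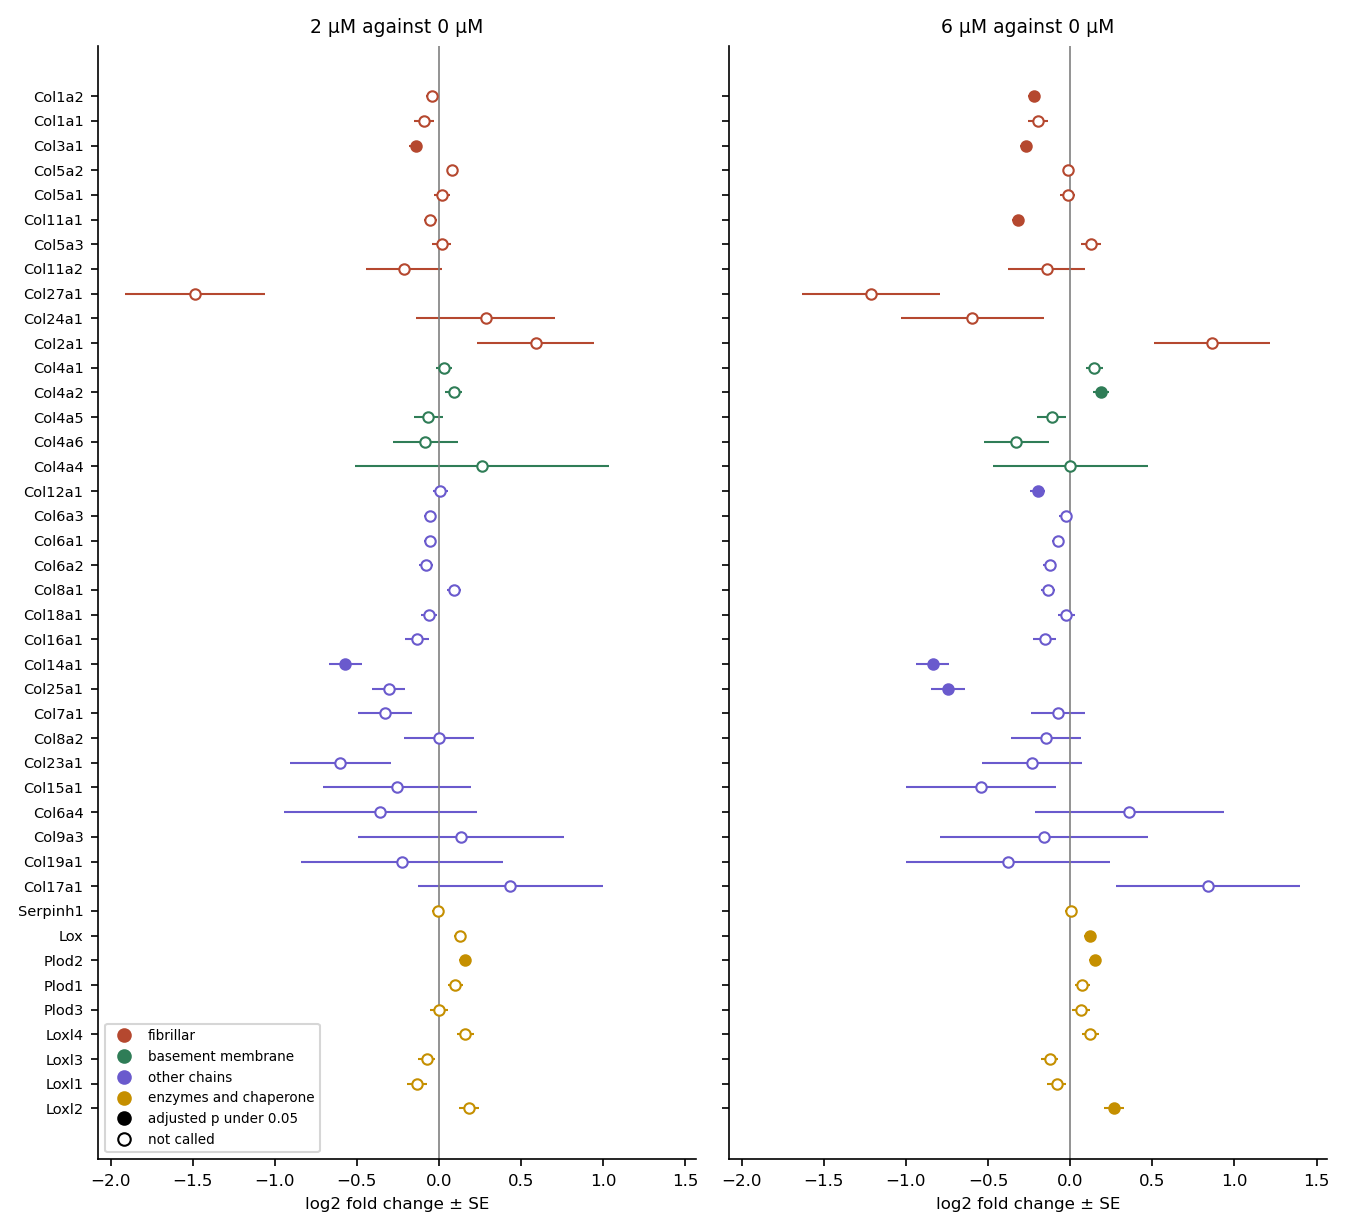
log2 fold change with its SE of the 42 tested collagen genes, at 2 µM against 0 µM (left panel) and 6 µM against 0 µM (right panel); filled points passed an adjusted p of 0.05 in edgeR's quasi-likelihood test. Among the called genes Col14a1 and Col25a1 lie farthest to the left at 6 µM, at −0.84 and −0.74; the long bars belong to chains with few counts.

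The start regions of 3 fibrillar chains that fell at 6 µM against 0 µM are given here, to show which of them hold the same short elements. They run from 250 bases before to 50 bases after the RefSeq start on GRCm38.p6, 5′ to 3′ on the gene's strand. Capitals mark CCAAT or its reverse complement, the letters bound by the factor NF-Y and known from collagen promoters, and TATAAA. The window of Col1a2 (chr6:4505368-4505667, plus strand) holds CCAAT on both strands; its start lies 804 bases inside the start given in the deposited table. That of Col3a1 (chr1:45311288-45311587, plus strand) holds TATAAA and no CCAAT. That of Col11a1 (chr3:114030290-114030589, plus strand) holds CCAAT on the opposite strand.
Col1a2: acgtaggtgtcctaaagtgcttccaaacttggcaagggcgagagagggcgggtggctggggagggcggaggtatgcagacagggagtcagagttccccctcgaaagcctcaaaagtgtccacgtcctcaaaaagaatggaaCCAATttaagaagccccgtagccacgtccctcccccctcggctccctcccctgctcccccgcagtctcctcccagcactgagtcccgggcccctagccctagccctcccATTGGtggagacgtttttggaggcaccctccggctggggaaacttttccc
Col3a1: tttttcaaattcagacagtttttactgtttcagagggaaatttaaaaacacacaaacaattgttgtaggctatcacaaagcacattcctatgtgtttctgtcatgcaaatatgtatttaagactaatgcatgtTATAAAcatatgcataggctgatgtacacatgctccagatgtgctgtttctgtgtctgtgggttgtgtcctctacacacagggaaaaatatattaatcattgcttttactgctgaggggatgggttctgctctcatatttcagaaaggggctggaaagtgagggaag
Col11a1: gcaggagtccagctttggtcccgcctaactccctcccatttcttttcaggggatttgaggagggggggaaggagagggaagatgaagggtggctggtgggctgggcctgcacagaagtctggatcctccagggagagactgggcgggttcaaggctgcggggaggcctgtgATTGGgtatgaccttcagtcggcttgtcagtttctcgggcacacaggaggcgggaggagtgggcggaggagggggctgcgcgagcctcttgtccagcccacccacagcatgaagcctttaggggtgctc
A RefSeq window was at hand for 39 of the 53 genes and for 31 of those tested. CCAAT, searched on both strands like the other motifs, was in 13 of these 31, and in 37.4% of all 32851 promoter windows of the same length. GGGCGG, the GC box, was in 22 of 31, beside 35.7% of all windows, TATAAA in 4 of 31, beside 13.6%, and the E box CANNTG in 16 of 31, beside 72.3%. The collagen counts are of tested genes, each scored over any of its windows. The shares of all windows are per window, whether or not the gene was tested here, so the units and the gene sets differ. A match is a description of these letters only.

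Type I collagen is made of chains from Col1a1 and Col1a2. Col1a2 (ENSMUSG00000029661, chr6:4504814-4541544, plus strand, GRCm38) had 5564, 6003, 6284 and 6387 CPM at 0 µM, 6138, 5583, 5795 and 6017 at 2 µM and 5187, 5135, 5335 and 5132 at 6 µM, in the order of replicates 1 to 4. Every 6 µM library was below every library of the other doses, while 0 and 2 µM overlapped. Col1a2 fell 1.17-fold at 6 µM against 0 µM, to 5197 ± 95.2 CPM at 6 µM against 6059 ± 368 CPM at 0 µM (log2 fold change −0.22, SE 0.0371, adjusted p = 0.000509 in edgeR's quasi-likelihood test). Against 2 µM the log2 fold change was −0.18 (adjusted p = 0.0153), a call that ended without 2 µM replicate 1 or 4 or without 6 µM replicate 1 or 4.

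Col1a1 (ENSMUSG00000001506, chr11:94936224-94953042, plus strand), its partner, had 3626, 4300.3, 4361 and 5030.0 CPM at 0 µM, 4397, 3809, 3931 and 4100.0 at 2 µM and 3775, 3623, 3901 and 3811 at 6 µM. The untreated libraries were widely spread and replicate 1 among them lay inside the 6 µM range. Its log2 fold change at 6 µM against 0 µM was −0.20 with an SE of 0.0620, close to that of Col1a2, but the adjusted p was 0.0527. It passed in 6 of 21 alternative analyses and missed in 15. Per length, the ratio of Col1a1 to Col1a2 was 1.35 ± 0.108 at 0 µM, 1.31 ± 0.0340 at 2 µM and 1.38 ± 0.0293 at 6 µM, so the untreated spread covered both other doses.

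Type III collagen, a homotrimer found beside type I in pliable tissue, comes from Col3a1 (ENSMUSG00000026043, chr1:45311538-45349706, plus strand). It had 2627, 2728, 2803 and 2926 CPM at 0 µM, 2664, 2384, 2413 and 2576 at 2 µM and 2318, 2263, 2351 and 2259.9 at 6 µM. The 6 µM libraries were below all others, whereas 2 µM replicate 1 reached the untreated range. Col3a1 fell 1.21-fold at 6 µM against 0 µM (log2 fold change −0.27, SE 0.0378, adjusted p = 6.55e-05 in edgeR's quasi-likelihood test). The 2 µM log2 fold change against 0 µM was −0.14 with an adjusted p of 0.0462, a call that 13 of 21 alternative analyses did not make, among them RLE scaling, the 2 doses fitted alone, the replicate block and the omission of any single library other than 0 µM replicate 1 and 2 µM replicate 1, with adjusted p up to 0.181. Col5a2 lies tail to tail with Col3a1, 24614 bases away, and had 1432 ± 41.1 CPM at 6 µM against 1444 ± 34.1 CPM at 0 µM (adjusted p = 0.876).

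Type XI collagen sits inside fibrils and limits their width, in cartilage above all. Its chain gene Col11a1 (ENSMUSG00000027966, chr3:114030540-114220718, plus strand) had 534, 489, 519.6 and 534 CPM at 0 µM, 518, 486, 491 and 505 at 2 µM and 412, 401, 426 and 427 at 6 µM. All 6 µM libraries were below all others, and 0 and 2 µM overlapped. Col11a1 fell 1.25-fold at 6 µM against 0 µM (log2 fold change −0.32, SE 0.0391, adjusted p = 1.35e-05) and by a log2 fold change of −0.26 against 2 µM (SE 0.0390, adjusted p = 0.000634). Between 2 and 0 µM it was −0.05 (adjusted p = 0.584). The calls against 0 and against 2 µM were made in all 21 alternative analyses.

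Type V collagen starts fibril assembly and mixes with type XI. Its chains did not pass the test: Col5a1 had 824 ± 22.5 CPM at 6 µM against 834 ± 73.6 CPM at 0 µM (log2 fold change −0.02), and Col5a3 had 166 ± 2.46 CPM at 6 µM against 152 ± 16.7 CPM at 0 µM (log2 fold change 0.13, adjusted p = 0.206). The remaining fibrillar chains were near the limit of detection. Col2a1, the main cartilage collagen, averaged 0.842, 1.28 and 1.54 CPM at 0, 2 and 6 µM, with adjusted p = 0.147 at 6 µM against 0 µM. Col27a1 averaged 1.52, 0.541 and 0.655 CPM. All its untreated libraries (1.29 to 1.95 CPM) lay above all others, yet its log2 fold changes of −1.21 at 6 µM and −1.49 at 2 µM against 0 µM had adjusted p of 0.0812 and 0.0711. Col11a2 and Col24a1 averaged 2.06 and 0.697 CPM at 6 µM, against 2.29 and 1.06 CPM at 0 µM, and did not pass.

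**Figure D4:**
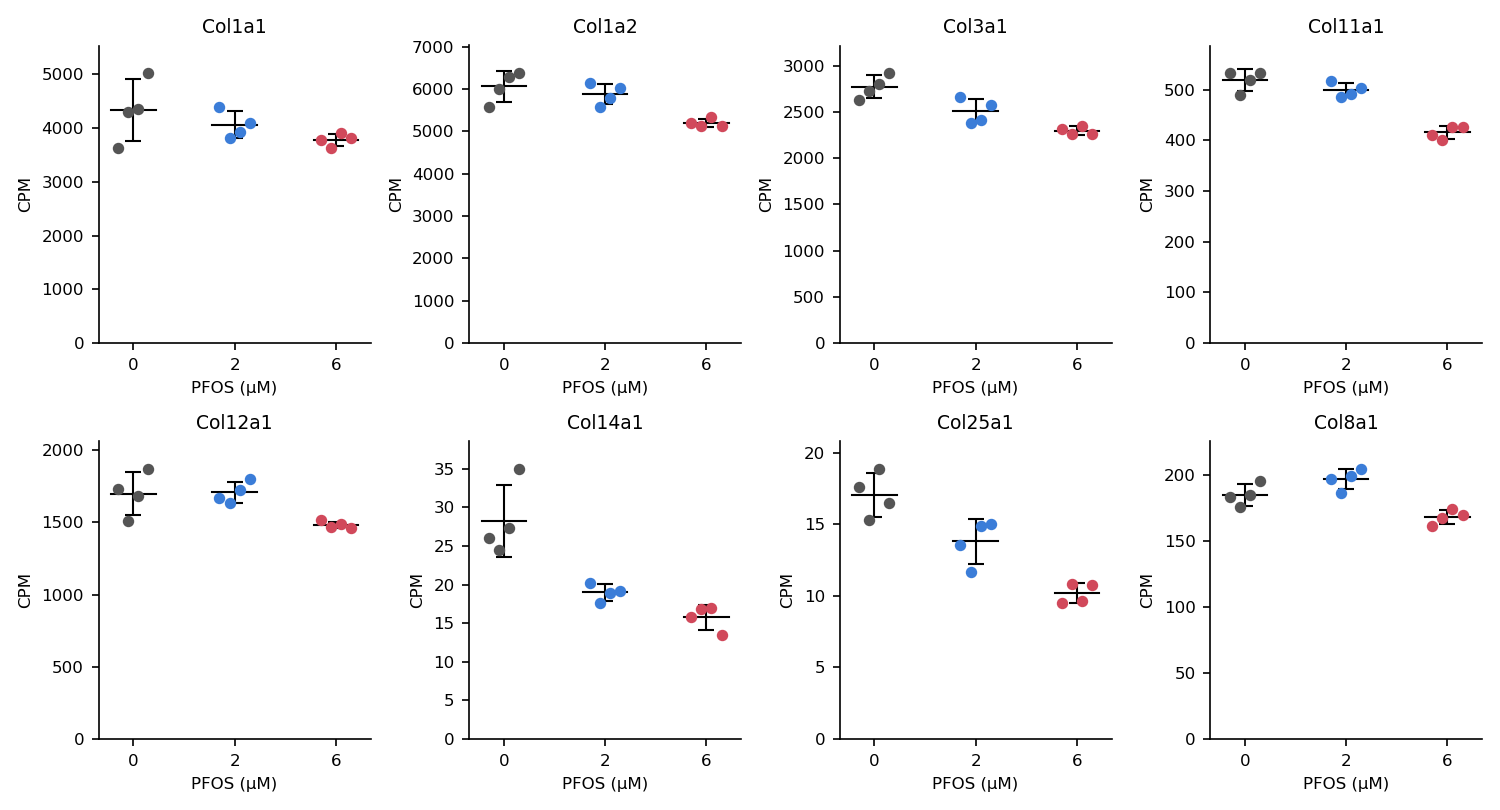
CPM of Col1a1, Col8a1 and the 6 chains called lower at 6 µM against 0 µM, by PFOS dose (µM), each axis from 0; points are libraries and bars mean ± SD over 4. In Col1a2, Col3a1, Col11a1, Col14a1, Col25a1 and Col8a1 the 6 µM libraries all lie below the 0 µM libraries.

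Among the chains that bind to fibril surfaces, Col14a1 had the largest fall of any called collagen gene. Type XIV collagen decorates fibrils of tendon, skin and muscle. Col14a1 (ENSMUSG00000022371, chr15:55307750-55520803, plus strand) had 26.0, 24.5, 27.4 and 35.0 CPM at 0 µM, 20.2, 17.6, 19.0 and 19.1 at 2 µM and 15.9, 16.8, 17.0 and 13.5 at 6 µM. The ranges of the 3 doses did not overlap. It fell 1.79-fold at 6 µM against 0 µM, to 15.8 ± 1.62 CPM at 6 µM against 28.2 ± 4.69 CPM at 0 µM (log2 fold change −0.84, SE 0.101, adjusted p = 1.22e-05). At 2 µM against 0 µM it fell 1.48-fold (log2 fold change −0.57, SE 0.101, adjusted p = 0.00368), and both calls were made in all 21 alternatives. The direct comparison of 6 with 2 µM gave −0.27 with an adjusted p of 0.253.

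Type XII collagen, also bound to fibrils and needed for muscle and tendon strength, comes from Col12a1 (ENSMUSG00000032332, chr9:79598991-79718831, minus strand). It had 1729, 1513, 1683 and 1872 CPM at 0 µM, 1671, 1636, 1725 and 1798 at 2 µM and 1514, 1468, 1486 and 1461 at 6 µM. The 6 µM libraries were tightly grouped below all 2 µM libraries, and untreated replicate 2 reached their range. At 6 µM against 0 µM Col12a1 fell 1.15-fold (log2 fold change −0.20, SE 0.0464, adjusted p = 0.00952); without 0 µM replicate 1 and 6 µM replicates 2 and 3, the libraries farthest from their dose means, the adjusted p was 0.124. Against 2 µM it was −0.20 (adjusted p = 0.0314), a call that ended without 2 µM replicate 3 or 4, without any one of the 6 µM libraries, and without the 3 libraries just named. Col16a1, of the same family, had 56.6 ± 1.98 CPM at 6 µM against 63.1 ± 6.22 CPM at 0 µM (adjusted p = 0.204). Col19a1 and Col9a3 averaged under 1 CPM at every dose.

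Type XXV is a collagen that spans the membrane, and in mice muscle-made Col25a1 is needed for motor nerves to enter muscle. Col25a1 (ENSMUSG00000058897, chr3:130131501-130599877, plus strand) had 17.6, 15.3, 18.9 and 16.5 CPM at 0 µM, 13.6, 11.7, 14.9 and 15.03 at 2 µM and 9.50, 10.9, 9.66 and 10.8 at 6 µM. The ranges of the 3 doses did not overlap, with 6 µM lowest and 0 µM highest. It fell 1.67-fold at 6 µM against 0 µM (log2 fold change −0.74, SE 0.102, adjusted p = 5.24e-05). Against 2 µM the log2 fold change was −0.44 (adjusted p = 0.0377), which 9 of 21 alternatives did not call: limma-voom, the replicate block, without 2 µM replicate 1, 3 or 4, without 6 µM replicate 1, 3 or 4, and without the 3 libraries farthest from their dose means. Between 2 and 0 µM it was −0.31 with an adjusted p of 0.126. A same-strand transcript inside the gene, Gm42837, had 2.72% as many counts.

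Type VIII collagen is a short-chain network former of vessel walls. Its gene Col8a1 (ENSMUSG00000068196, chr16:57624258-57754737, minus strand) had 184, 176, 185 and 196 CPM at 0 µM, 197, 186, 199.8 and 205 at 2 µM and 161, 167, 175 and 170.2 at 6 µM. The 6 µM libraries were below all others, and the 0 and 2 µM libraries overlapped. Col8a1 fell by a log2 fold change of −0.23 at 6 µM against 2 µM (SE 0.0443, adjusted p = 0.00937), a call that ended without 2 µM replicate 4 or 6 µM replicate 1. Against 0 µM it was −0.14 at 6 µM (adjusted p = 0.0627) and 0.09 at 2 µM (adjusted p = 0.355).

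Type VI collagen forms the beaded microfibrils that tie muscle fibres to their surroundings, and faults in it cause muscular dystrophy in humans. Its 3 abundant chains did not pass the test. At 0, 2 and 6 µM, Col6a1 averaged 1199 ± 63.2, 1155 ± 31.5 and 1141 ± 12.3 CPM, and Col6a3 averaged 1256 ± 79.0, 1209 ± 28.2 and 1232 ± 21.6 CPM. Col6a2 averaged 619 ± 39.1, 586 ± 14.4 and 567 ± 8.76 CPM, with a log2 fold change of −0.13 at 6 µM against 0 µM (SE 0.0410, adjusted p = 0.0624) that passed in 5 of 21 alternatives. Per length, Col6a1 stood at 3.69 ± 0.0640 times Col6a2 at 0 µM, 3.75 ± 0.0517 times at 2 µM and 3.82 ± 0.0237 times at 6 µM.

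Col18a1, the source of endostatin and a basement membrane zone collagen, had 154 ± 5.15 CPM at 6 µM against 156 ± 11.1 CPM at 0 µM (adjusted p = 0.844). It overlaps Slc19a1 on the other strand, which had 35.2% as many counts, and the strand setting of the counting is not given in the sources used here. Col7a1, the anchoring fibril chain, averaged 5.59 CPM at 6 µM against 5.86 CPM at 0 µM and did not pass. The other tested chains of these families, Col6a4, Col8a2, Col15a1, Col17a1 and Col23a1, averaged at most 3.05 CPM at any dose and did not pass in any comparison.

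Of the 44 chains 11 were not tested because of low counts: Col4a3, Col6a5, Col6a6, Col9a1, Col9a2, Col10a1, Col13a1, Col20a1, Col22a1, Col26a1 and Col28a1. The highest value among them in any library was 0.581 CPM. Col6a6, a type VI chain, had 0 counts in all 2 and 6 µM libraries and 16 counts over the untreated ones, 2 to 8 in each of the 4. Col13a1, a chain of the neuromuscular junction, had 2 counts in all, both in a single 2 µM library.

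The main type IV chains, Col4a1 and Col4a2, build the network of every basement membrane and are transcribed away from each other from a shared start region, where the deposited table has their ends overlapping by 22 bases. The RefSeq windows of Col4a1 (chr8:11312777-11313076, minus strand) and Col4a2 (chr8:11312555-11312854, plus strand) overlap and are shown because the pair is read from the same stretch. Capitals mark CCAAT or its reverse complement. Neither marked element lies wholly within the stretch that the windows share.
Col4a1: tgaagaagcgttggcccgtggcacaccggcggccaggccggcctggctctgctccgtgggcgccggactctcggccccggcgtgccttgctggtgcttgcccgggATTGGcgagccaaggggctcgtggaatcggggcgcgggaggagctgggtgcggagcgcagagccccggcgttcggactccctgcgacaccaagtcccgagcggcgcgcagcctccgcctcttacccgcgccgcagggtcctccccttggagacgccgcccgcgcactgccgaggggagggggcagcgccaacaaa
Col4a2: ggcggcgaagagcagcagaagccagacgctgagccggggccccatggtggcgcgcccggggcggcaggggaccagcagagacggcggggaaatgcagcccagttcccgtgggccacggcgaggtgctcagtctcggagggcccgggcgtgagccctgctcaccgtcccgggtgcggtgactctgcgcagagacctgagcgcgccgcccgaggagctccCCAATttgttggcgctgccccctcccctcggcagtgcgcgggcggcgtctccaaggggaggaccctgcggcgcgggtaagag
Col4a2 (ENSMUSG00000031503, chr8:11312805-11449287, plus strand) had 174, 186, 189.8 and 216 CPM at 0 µM, 208, 195, 203 and 209 at 2 µM and 211, 221, 218 and 222 at 6 µM. Untreated replicate 4 was as high as the 6 µM libraries, and the other untreated ones were below them. It rose 1.14-fold at 6 µM against 0 µM (log2 fold change 0.19, SE 0.0515, adjusted p = 0.0251), a call that ended in 7 of 21 alternatives: without 0 µM replicate 1, 2 or 3, without 6 µM replicate 2, 3 or 4, and without the 3 libraries farthest from their dose means. The largest adjusted p among these was 0.222.

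Col4a1 (ENSMUSG00000031502, chr8:11198423-11312826, minus strand) had 221, 235, 233 and 264 CPM at 0 µM, 257, 237, 239 and 240.1 at 2 µM and 270.3, 249, 265 and 271 at 6 µM. Here too untreated replicate 4 lay among the 6 µM libraries. Its log2 fold change at 6 µM against 0 µM was 0.15 (SE 0.0495), with an adjusted p of 0.0692 that passed in 5 of 21 alternatives. Per length, the ratio of Col4a1 to Col4a2 was 1.10 ± 0.0220 at 0 µM, 1.06 ± 0.0341 at 2 µM and 1.07 ± 0.0561 at 6 µM. Without a stated strand setting, reads from the overlapping ends of the pair cannot be told apart.

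The other type IV chains, which make the more restricted networks of kidney, lung and smooth muscle, did not pass. Col4a5 had 14.5 ± 0.297 CPM at 6 µM against 15.7 ± 0.342 CPM at 0 µM (log2 fold change −0.11), and Col4a6 had 2.55 ± 0.307 CPM at 6 µM against 3.19 ± 0.447 CPM at 0 µM (log2 fold change −0.33). For Col4a5 all 6 µM libraries (14.2 to 14.8 CPM) lay below all untreated ones (15.3 to 16.1 CPM). Col4a4 averaged 0.192 CPM at 6 µM against 0.201 CPM at 0 µM.

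Among the enzymes that act on collagen lysines, Plod2, Loxl2 and Lox rose at 6 µM against 0 µM. Plod2 hydroxylates lysines in the ends of the chains, which sets the kind of cross-link formed. Plod2 (ENSMUSG00000032374, chr9:92542223-92608428, plus strand) had 405, 391, 393 and 388 CPM at 0 µM, 427, 448, 429.7 and 454 at 2 µM and 435, 430.5, 438 and 446 at 6 µM. All libraries of both PFOS doses were above all untreated ones, and the PFOS doses overlapped each other. It rose 1.11-fold at 6 µM against 0 µM (log2 fold change 0.15, SE 0.0357, adjusted p = 0.0103), in every alternative. At 2 µM against 0 µM it rose 1.12-fold (log2 fold change 0.16, SE 0.0357, adjusted p = 0.0201), a call that ended without 0 µM replicate 3 or 2 µM replicate 2 or 4.

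Plod1, which hydroxylates lysines in the helix, had 316 ± 16.5 CPM at 6 µM against 301 ± 17.5 CPM at 0 µM (log2 fold change 0.07, adjusted p = 0.393). Plod3, which also adds sugars to hydroxylysine, had 153 ± 7.72 CPM at 6 µM against 146 ± 10.7 CPM at 0 µM (log2 fold change 0.07, adjusted p = 0.541). Znhit1 overlaps Plod3 on the other strand with 16.6% as many counts.

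Of the lysyl oxidases, Loxl2, which also cross-links type IV collagen, had 40.03, 42.3, 38.5 and 44.35 CPM at 0 µM, 47.8, 46.7, 48.5 and 44.40 at 2 µM and 52.4, 45.8, 50.6 and 49.7 at 6 µM (ENSMUSG00000034205, chr14:69609068-69695834, plus strand). The libraries of both PFOS doses were above the untreated ones, 2 µM replicate 4 by a narrow margin, and the PFOS doses overlapped each other. Loxl2 rose 1.20-fold at 6 µM against 0 µM (log2 fold change 0.27, SE 0.0613, adjusted p = 0.00842), in all 21 alternatives, and was 0.18 at 2 µM against 0 µM (adjusted p = 0.139).

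Lox, the most abundant oxidase of these cells and an enzyme of fibrillar collagen and elastin, lies on chromosome 18 (ENSMUSG00000024529, chr18:52516069-52529867, minus strand). It had 1081, 1054, 1099 and 1113 CPM at 0 µM, 1193, 1196, 1178 and 1187 at 2 µM and 1199, 1101, 1192 and 1234 at 6 µM. The 2 µM libraries were all above the untreated ones and closely grouped, while 6 µM replicate 2 lay inside the untreated range. Lox rose 1.09-fold at 6 µM against 0 µM (log2 fold change 0.12, SE 0.0355, adjusted p = 0.0365). The call ended in 7 of 21 alternatives: with upper-quartile scaling, with the 2 doses fitted alone, and without 0 µM replicate 2 or 3 or 6 µM replicate 1, 3 or 4. At 2 µM against 0 µM it was 0.13 with an adjusted p of 0.0571.

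The remaining oxidases did not pass at 6 µM against 0 µM. Loxl4 had 111 ± 1.54 CPM at 6 µM against 102 ± 6.99 CPM at 0 µM (log2 fold change 0.12, adjusted p = 0.154), and Loxl1 had 71.9 ± 2.35 CPM at 6 µM against 76.1 ± 6.84 CPM at 0 µM (log2 fold change −0.08, adjusted p = 0.454). Loxl3 had 73.5 ± 2.32 CPM at 6 µM against 80.1 ± 2.69 CPM at 0 µM (log2 fold change −0.13, adjusted p = 0.151), but the overlapping Htra2 on the other strand had 66.0% as many counts. All Loxl3 values at 6 µM (70.8 to 75.9 CPM) lay below all values at 0 µM (77.6 to 83.8 CPM). Serpinh1, whose product binds every collagen helix before secretion, had 2128 ± 43.3 CPM at 6 µM against 2122 ± 93.9 CPM at 0 µM, a log2 fold change of 0.00 with an SE of 0.0334 (adjusted p = 0.963).

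**Figure D5:**
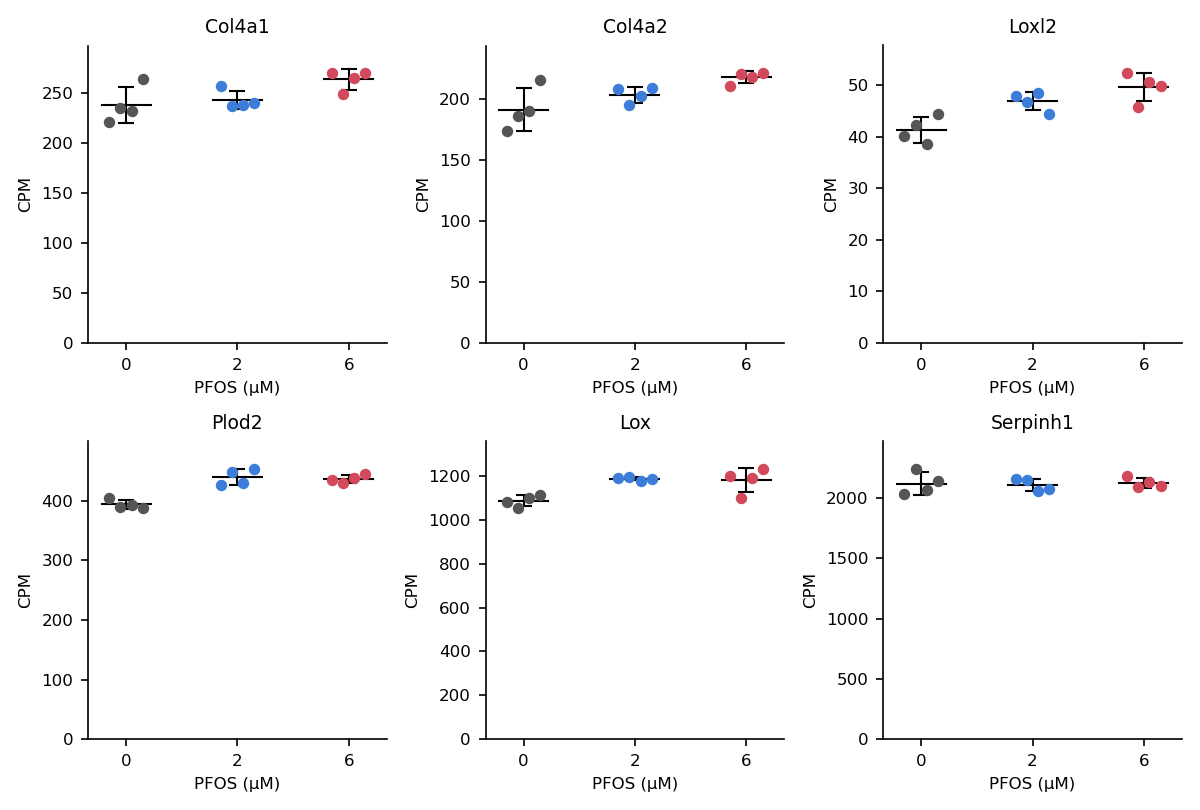
CPM of Col4a1, Col4a2, Loxl2, Plod2, Lox and Serpinh1 by PFOS dose (µM), each axis from 0; points are libraries and bars mean ± SD over 4. Both PFOS doses lie above 0 µM in every library for Plod2 and Loxl2, and Serpinh1 averages 2122, 2111 and 2128 CPM at 0, 2 and 6 µM.

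Genes that fold and modify collagen moved in both directions at 6 µM against 0 µM. Of 15 tested, 1 rose and 3 fell, beside 4.58% of all tested genes that rose and 3.66% that fell. The median log2 fold change was −0.00, beside −0.02 for all tested genes. P4ha2, a prolyl 4-hydroxylase subunit, rose to 299.8 ± 14.1 CPM at 6 µM, against 267 ± 11.7 CPM at 0 µM (log2 fold change 0.17, adjusted p = 0.0176). Fkbp14, a prolyl isomerase of the endoplasmic reticulum that binds type III collagen, fell to 31.7 ± 2.79 CPM at 6 µM against 42.1 ± 2.38 CPM at 0 µM (log2 fold change −0.41, adjusted p = 0.00109). It was also the single gene of the list that fell at 2 µM against 0 µM (log2 fold change −0.31, adjusted p = 0.0265). Ppib, which encodes cyclophilin B, fell to 66.0 ± 3.85 CPM at 6 µM against 75.6 ± 2.06 CPM at 0 µM (log2 fold change −0.20, adjusted p = 0.024). P4ha3, named after its values were seen, also fell (log2 fold change −0.24, adjusted p = 0.0413). Of 5 tested genes that trim procollagen, Adamts2, which removes amino-terminal propeptides, fell to 72.2 ± 3.37 CPM at 6 µM against 83.6 ± 6.61 CPM at 0 µM (log2 fold change −0.21, adjusted p = 0.0294), and the list's median was −0.11.

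Of 11 tested genes of collagen breakdown and its inhibitors, 1 rose and 3 fell at 6 µM against 0 µM, beside 4.58% and 3.66% of all tested genes. Their median log2 fold change was 0.06, beside −0.02 for all tested genes. Timp2, a metalloproteinase inhibitor, fell to 326 ± 10.7 CPM at 6 µM against 370.1 ± 18.5 CPM at 0 µM (log2 fold change −0.18, adjusted p = 0.0078). Mmp14, a membrane-bound collagenase, fell to 281 ± 4.28 CPM at 6 µM against 319 ± 24.7 CPM at 0 µM (log2 fold change −0.18, adjusted p = 0.0168). Mmp11, a stromelysin, rose to 80.2 ± 3.49 CPM at 6 µM against 70.4 ± 1.92 CPM at 0 µM (log2 fold change 0.19, adjusted p = 0.0184). The gelatinase gene Mmp2, named after its values were seen, fell as well (log2 fold change −0.15, adjusted p = 0.0193). At 2 µM against 0 µM Timp3, an inhibitor bound to the matrix, rose to 397 ± 41.1 CPM at 2 µM against 320.2 ± 26.0 CPM at 0 µM (log2 fold change 0.31, adjusted p = 0.0114). It was not called at 6 µM against 0 µM, where it had 339 ± 20.3 CPM at 6 µM (log2 fold change 0.08, adjusted p = 0.513).

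Of 7 tested collagen receptor genes edgeR's quasi-likelihood test called 0 at 6 µM against 0 µM, where 8.24% of all tested genes were called. Their median log2 fold change was −0.16, beside −0.02 for all tested genes, with 2 values above 0 and 5 below. At an unadjusted p under 0.05 1 was higher and 1 lower, DESeq2 called 1 lower and limma-voom called 0. Itgb1, the beta chain shared by the collagen-binding integrins, had 826 ± 18.01 CPM at 6 µM against 782 ± 31.2 CPM at 0 µM. Ddr2, a receptor tyrosine kinase for fibrillar collagen, had 403 ± 2.75 CPM at 6 µM against 379.7 ± 29.5 CPM at 0 µM. These were the 2 values above 0, with log2 fold changes of 0.08 and 0.09. Among the 5 below 0, the integrin alpha chain gene Itga10 had 1.79 ± 0.228 CPM at 6 µM against 2.83 ± 0.295 CPM at 0 µM, without overlap between the libraries (log2 fold change −0.66, adjusted p = 0.0513). The alpha chain genes Itga1 and Itga11 had log2 fold changes of −0.16 and −0.09, and Ddr1, the relative of Ddr2, had −0.17. Itga2 stayed under 1 CPM in every library (log2 fold change −1.45, SE 0.886). All 7 genes were named after their values were seen.

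Among the other components of basement membranes, genes moved in both directions. Of 14 tested at 6 µM against 0 µM, 4 rose and 2 fell, where 4.58% of all tested genes rose and 3.66% fell. The median log2 fold change of the 14 was 0.15, beside −0.02 for all tested genes. Nid1, the linker between laminin and type IV collagen, rose to 294 ± 10.1 CPM at 6 µM against 230.1 ± 16.9 CPM at 0 µM (log2 fold change 0.35, SE 0.0494, adjusted p = 6.55e-05). The laminin chain gene Lama5 rose to 381 ± 11.4 CPM at 6 µM against 296 ± 30.5 CPM at 0 µM (log2 fold change 0.36, adjusted p = 0.00023). Lamb1, a laminin beta chain, rose to 293 ± 6.23 CPM at 6 µM against 249 ± 10.1 CPM at 0 µM (log2 fold change 0.24, adjusted p = 0.000628). It also rose at 2 µM against 0 µM (log2 fold change 0.15, adjusted p = 0.0458). Named after their values were seen, Hspg2, which encodes perlecan, rose (log2 fold change 0.25, adjusted p = 0.0222), while Nid2 (log2 fold change −0.22, adjusted p = 0.00238) and Lamb2 (log2 fold change −0.17, adjusted p = 0.039) fell. Within the nidogen pair and within these laminin beta chains, then, a gene rose and its relative fell.

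Markers of cell state moved at 6 µM against 0 µM beside the collagen genes, where 4.58% of all tested genes rose and 3.66% fell. The marker lists are short, and their difference from these shares was not tested. Of 5 myoblast markers 4 were tested and 2 fell, Myod1 and Cdh15, and the list summed to 272 to 303 CPM at 6 µM against 290 to 351 CPM at 0 µM. Of 6 myotube markers 5 were tested and 3 fell, Acta1, Myh3 and Myog, with sums of 23.1 to 31.6 CPM at 6 µM against 38.0 to 54.5 CPM at 0 µM. Of 4 smooth muscle markers 3 were tested and Acta2 fell. The list summed to 503 to 523 CPM at 6 µM against 664 to 727 CPM at 0 µM. Myh11, which defines that cell type, stayed under 1 CPM. Des, on both this list and the myoblast list, averaged 230 CPM at 6 µM against 258 CPM at 0 µM. It made up most of the myoblast sums and was not called (adjusted p = 0.0555 in edgeR's quasi-likelihood test). Of 5 cartilage and bone markers 2 were tested and Sox9 rose, with sums of 52.7 to 68.1 CPM at 6 µM against 44.9 to 53.1 CPM at 0 µM, and Sp7, Bglap and Ibsp stayed under 1 CPM. The part of these markers in the collagen results was not tested. The 7 fibroblast markers summed to 193 to 215 CPM at 6 µM against 187 to 203 CPM at 0 µM, nearly all of it Ly6a. Pdgfra, another of them, had 20.5 CPM at 6 µM against 22.5 CPM at 0 µM, 4 of the 7 stayed under 1 CPM in every library, and Tcf21 was at 0 in every library. The 4 endothelial markers summed to 5.45 to 7.17 CPM at 6 µM against 4.92 to 6.54 CPM at 0 µM, and the 4 macrophage markers to 0.323 to 1.57 CPM at 6 µM against 0.450 to 1.22 CPM at 0 µM. Nearly all of the endothelial sum was Cdh5, while Kdr, Tek and Pecam1 stayed under 1 CPM in every library. Most of the macrophage sum was Cd68.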

How the data were processed

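Messenger RNA libraries of 12 C2C12 samples were counted per gene. The authors deposited whole-number read counts, not normalized, for 54532 genes. Reads were aligned with HISAT2 and the build was GRCm39, per the submitters' processing notes; for the counting program, its strand setting and the annotation, the sources used here give nothing. The table's positions match GRCm38: 52 of the 53 collagen genes have the position of GENCODE M21, so coordinates are given on that build.

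The test on the deposited counts was that of edgeR 4.0.16 (R 4.3.3): TMM scaling, filterByExpr by dose (16038 genes kept, 38494 left out), and a quasi-likelihood test in 1 model with a mean per dose, leaving 9 residual degrees of freedom. Adjustment was by Benjamini-Hochberg over all tested genes, with a threshold of 0.05. The common biological coefficient of variation was 10.8%. Standard errors are the log2 fold change over the square root of F. The steps were tested on simulated counts. For a simulated 6 against 0 µM comparison on 15670 genes, 44.9% of genes changed 1.25-fold and 62% of those raised 2-fold were called. The changed genes were drawn at random from all genes that passed the filter, so these shares are not those of the collagen genes.

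Alternatives were RLE and upper-quartile scaling, no filter, a mean count of at least 50, DESeq2 1.42.0, limma-voom (limma 3.58.1), fits of the 2 doses compared, a replicate block, leaving out each library, and leaving out 3 deviating libraries together. Every tested collagen gene could be named; of each pathway list, the rule named the 3 called genes with the smallest adjusted p. The genes, lists and markers were chosen with earlier results of these data known. No 2 libraries of a dose agreed within sampling noise. The protein sequences of the chains were not used here.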

Additional observations from a re-analysis of the deposited data

Results flagged for a closer look

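In 4 of 141 groups of 4 libraries looked at, a single library stood apart from the other 3 by more than Dixon's 95% critical value. Chance alone gives about 1 in 20 such groups, or 7.05 of 141. Col4a1, a type IV chain, had 257 CPM in 2 µM replicate 1, and 237 to 240 CPM in the other 2 µM libraries. Col6a1, a type VI chain, had 1202 CPM in 2 µM replicate 4, and 1135 to 1143 CPM in the others. Col6a3 had 1199.7 CPM in 6 µM replicate 2, and 1241 to 1245 CPM in the other 6 µM libraries. Col24a1, a minor fibrillar chain, had 0.320 CPM in 2 µM replicate 2, and 1.54 to 1.70 CPM in the others.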

How the results depend on the processing

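Of 18 fold changes of collagen genes called over the 3 comparisons, 9 were called in all 21 alternatives and none reversed; 9 others were called only in an alternative. At 2 against 0 µM, 1 collagen gene rose and 2 fell; 2 rose and 1 fell with RLE scaling, 3 rose with DESeq2, 2 with limma-voom, and 2 without the 3 deviating libraries, where 3 rather than 5 fell at 6 against 2 µM. Over all genes at 2 against 0 µM (258 rose, 119 fell), 438 rose and 193 fell with no filter, and 524 rose and 227 fell with DESeq2. At 6 against 2 µM (90 and 88), the counts were 177 and 224 with no filter, 229 and 216 with DESeq2, and 174 and 133 with the 2 doses fitted alone. Without the 3 libraries 408 rose and 302 fell at 6 against 0 µM, and 55 fell at 6 against 2 µM. Leaving out single libraries gave 2 to 6 collagen genes higher and 6 to 8 lower at 6 against 0 µM, 0 to 3 and 1 to 2 at 2 against 0 µM, and 0 and 1 to 5 at 6 against 2 µM. Over all genes it gave 513 to 789 higher and 398 to 592 lower, 72 to 322 and 34 to 168, and 45 to 138 and 33 to 121 in the same order. Same-numbered libraries did not deviate together over all tested genes (correlations of −0.0983 to 0.0451, beside −0.0848 to 0.0908 for other pairs). No pairing by number was seen, but a weak one, or one limited to few genes, would not show in these correlations. With the replicate block 4 collagen genes rose and 7 fell at 6 against 0 µM, 1 rose and 1 fell at 2 against 0 µM, and 4 fell at 6 against 2 µM, where 54 of all genes fell. The cause of these shifts was not tested. Chains under about 1 CPM had too few counts for their direction to be read, and 37 of 99 uncalled fold changes changed sign in at least 1 alternative.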
